A study of Homo sapiens with 6 samples.

Results

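Selective autophagy uses cargo receptors, proteins that hold a cargo with one part and an LC3 or GABARAP protein of the growing autophagosome with another. The transcripts described here are those of 10 such receptors, chosen by name as receptors for ubiquitinated cargo (SQSTM1, NBR1, OPTN, CALCOCO2 and TAX1BP1), for mitochondria (BNIP3 and BNIP3L), for ferritin (NCOA4) and for the endoplasmic reticulum (CCPG1 and TEX264). They were looked up by gene symbol among the 7681 genes of the deposited tables, and 8 of the 10 were found there.

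The samples were 6 untreated cultures of HCT116, a human colorectal carcinoma cell line, kept for 48 hours: 3 labelled WT and 3 labelled Rab27B KO, in which the submitters state that CRISPR/Cas9 was used to delete RAB27B, the gene of a vesicle-secretion GTPase. The labels do not say whether the edited cells are a single clone or a pool. The files are 2 tables of the authors' own comparison, 1 of higher and 1 of lower genes, each giving a log2 fold change with its q-value. They hold no value per sample, so the depth of each library, the spread between replicates and the level of any transcript in either group are unknown. RAB27B itself was 36.7-fold higher in samples labelled Rab27B KO per the authors' deposited table (log2 fold change 5.20), which goes against the label. Whether the sample labels or the deposited ratio are reversed, or neither is, could not be checked without values per sample. Each direction below is as the column headers state it, samples labelled Rab27B KO relative to samples labelled WT, and every one would turn if either were reversed.

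Of 10 intestinal epithelial markers, 6 were listed, 3 higher and 3 lower, with EPCAM and CDH1 2.23-fold and 2.22-fold lower and KRT8 and KRT18 1.53-fold and 1.39-fold higher per the authors' deposited table. KRT20 was 4.23-fold higher and CDX2 1.68-fold lower per the authors' deposited table, both picked after seeing their values. The leukocyte marker PTPRC and the fibroblast marker COL1A2 were in neither table. Of 6 leukocyte markers 1 was listed, LYZ, and of 8 fibroblast and endothelial markers 2 were listed, COL3A1 and COL1A1. LYZ and COL3A1 were 2.53-fold and 3.41-fold higher and COL1A1 1.32-fold lower per the authors' deposited table. The part of these markers in the receptor values was not tested.

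Receptors differ in how they recognise cargo. SQSTM1 (p62), NBR1, optineurin (OPTN), NDP52 (CALCOCO2) and TAX1BP1 bind ubiquitin chains on protein aggregates, bacteria or damaged organelles. BNIP3 and NIX (BNIP3L) are anchored in the outer mitochondrial membrane and are known as targets of hypoxia-inducible factor. NCOA4 carries ferritin to the lysosome, and CCPG1 and TEX264 sit in the membrane of the endoplasmic reticulum. SQSTM1 is a known target of the antioxidant factor NRF2, and its protein binds KEAP1, which holds NRF2 in check.

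For a view of their promoters, the 250 bases before each annotated transcript start were searched on both strands for 4 short motifs. These were ACGTG, the core of hypoxia response elements; CACGTG, the E-box at the centre of the CLEAR motif bound by TFEB, which contains ACGTG on either strand; TGACNNNGC, the antioxidant response element; and TGATGNAA, an ATF4 element. RefSeq (GRCh38.p14) gave 15 such windows for 9 of the 10 receptors, and BNIP3L had no entry. ACGTG was found in 2 of the 15 windows, those of BNIP3 and CALCOCO2. CACGTG was found in 1, that of BNIP3, and TGACNNNGC in 1, that of CALCOCO2. TGATGNAA was found in none. Among all 35116 windows of the same length, 18.5% held ACGTG, 6.34% CACGTG, 10.9% TGACNNNGC and 3.14% TGATGNAA. The windows of BNIP3 and CALCOCO2 are shown because they are those with a match, and each is printed up to the first base that GENCODE annotates as an exon. The matches are in capitals, 5′ to 3′ on the gene's own strand. BNIP3 is read from the minus strand, chr10:131982014-131982173 (GRCh38.p14), and CALCOCO2 from the plus strand, chr17:48830785-48830987.
BNIP3: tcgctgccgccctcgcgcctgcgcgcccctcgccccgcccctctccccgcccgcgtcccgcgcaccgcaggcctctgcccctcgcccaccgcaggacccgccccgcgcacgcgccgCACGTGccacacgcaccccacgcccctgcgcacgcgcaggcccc
CALCOCO2: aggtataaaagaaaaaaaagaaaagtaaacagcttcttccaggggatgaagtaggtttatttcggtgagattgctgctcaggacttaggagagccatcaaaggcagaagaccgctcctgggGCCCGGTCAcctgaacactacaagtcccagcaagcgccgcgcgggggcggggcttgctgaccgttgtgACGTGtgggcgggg
The E-box of BNIP3 lies 134 to 129 bases before the transcript start. In CALCOCO2 the antioxidant-type match, on the opposite strand, lies 129 to 121 bases and the ACGTG match 61 to 57 bases before it. A match of letters is a description and not a binding site, and the SQSTM1, OPTN, NBR1, TAX1BP1, CCPG1, NCOA4 and TEX264 windows held none of the 4 within these 250 bases.

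Most receptor transcripts were higher in the samples labelled Rab27B KO. The tables held 80.0% of the receptors. Of the 8 listed, 7 were higher and 1, NBR1, was lower per the authors' deposited table, where a gene is listed if its q-value is below 0.05. Being listed is common in these data: 37.9% of the 20056 protein-coding genes of RefSeq were in one of the tables, a share whose denominator includes genes that HCT116 cells may not express. Of all listed genes 50.7% were higher and 49.3% lower, against 87.5% and 1 of 8 for the listed receptors. Since the receptors were chosen with earlier results of these data known, this contrast is a description and not a test. With a reversed ratio or labels, 7 of 8 would be lower, beside 50.7% of all listed genes, and NBR1 would be the higher one. The median log2 fold change of the 8 was 0.68, beside 0.12 over all listed genes, which lie on both sides of 0. With signs left out, the medians were 0.68 and 0.41. The receptor medians cover only receptors that passed the authors' threshold and say nothing of NCOA4 and TEX264.

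**Figure D1:**
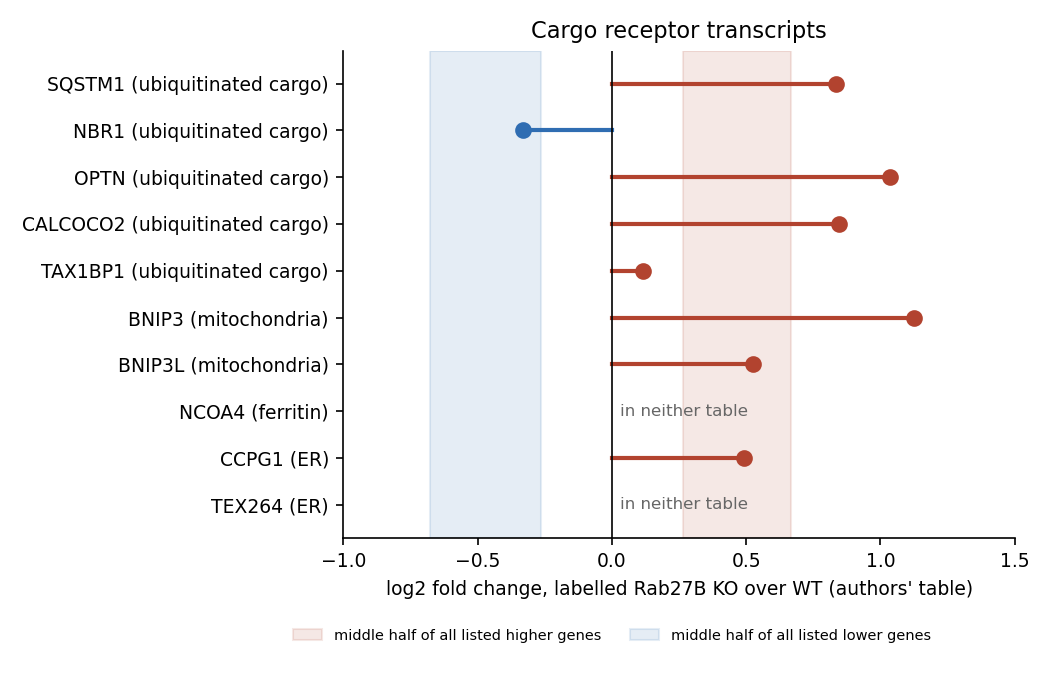
Log2 fold change of each receptor, samples labelled Rab27B KO over WT, from the authors' deposited table (horizontal axis), with the cargo class in parentheses. Shaded bands give the interquartile range of all listed higher genes (0.26 to 0.67) and of all listed lower genes (-0.68 to -0.27); BNIP3, OPTN, CALCOCO2 and SQSTM1 lie above the upper band, TAX1BP1 lies below it, and NBR1 is the receptor on the lower side.

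The receptors for ubiquitinated cargo were all listed, 4 higher and 1 lower. SQSTM1 encodes p62, which clusters ubiquitinated proteins and is itself degraded by autophagy (gene ID 8878; GRCh38 chromosome 5, 179806393 to 179838078). It was 1.78-fold higher per the authors' deposited table (log2 fold change 0.83), with q = 6.09e-101. That q-value ranked 117 among the 7681 listed genes, the smallest of any receptor, and 83.1% of the listed higher genes had a smaller change.

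CALCOCO2 encodes NDP52, a receptor for bacteria and damaged mitochondria (gene ID 10241; chromosome 17, 48831035 to 48865245). Per the authors' deposited table it was 1.80-fold higher, a log2 fold change of 0.85 with q = 2.67e-72. OPTN encodes optineurin, a receptor phosphorylated by the kinase TBK1 (gene ID 10133; chromosome 10, 13100082 to 13138308). Its value per the authors' deposited table was 2.05-fold higher (log2 fold change 1.03), with q = 1.68e-35. OPTN thus had a larger change than SQSTM1 or CALCOCO2 but a larger q-value, ranked 550 against 117 and 198.

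The remaining receptors for ubiquitinated cargo had smaller changes. TAX1BP1, a relative of NDP52 that also restrains NF-kB signalling with the deubiquitinase A20 (gene ID 8887; chromosome 7, 27739373 to 27829767), was 1.08-fold higher per the authors' deposited table. Its log2 fold change was 0.12 and its q-value 0.0489, which placed it just inside the threshold at rank 7671 of 7681. NBR1, which shares its domain plan with p62 and works with it on aggregates (gene ID 4077; chromosome 17, 43170409 to 43211688), was 1.26-fold lower per the authors' deposited table. Its log2 fold change was -0.33 with q = 5.96e-10, and 37.3% of the listed lower genes had a smaller change. SQSTM1 and NBR1 therefore stood on opposite sides of 0, and whether either differs from the other receptors beyond replicate error was not tested, since no value per sample was used here.

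Both mitochondrial receptors were higher. BNIP3 (gene ID 664; chromosome 10, 131967684 to 131981923) had the largest change of the receptors, 2.18-fold higher per the authors' deposited table (log2 fold change 1.12, q = 7.22e-75). BNIP3L (gene ID 665; chromosome 8, 26383054 to 26413127), the close paralog that clears mitochondria from maturing red cells, was 1.44-fold higher per the authors' deposited table (log2 fold change 0.52, q = 2.94e-24). The deposited log2 values of the paralogs differed by 0.60, a difference for which no error can be given.

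Only 1 of the 2 receptors of the endoplasmic reticulum was listed. CCPG1, whose transcript is known to respond to stress of that organelle (gene ID 9236; chromosome 15, 55355239 to 55408359), was 1.41-fold higher per the authors' deposited table (log2 fold change 0.49, q = 7.08e-05). Its change was close to that of BNIP3L, but its q-value ranked 4536 against 944. CCPG1 lies 36.1 kb from RAB27A, the paralog of the targeted gene, which was in neither table. TEX264 (gene ID 51368; chromosome 3, 51671252 to 51704323) was in neither table. NCOA4, the ferritin receptor (gene ID 8031; chromosome 10, 46005088 to 46030623), was also in neither, so both either missed the threshold or were not measured.

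Ordered by size, the deposited changes ran BNIP3, OPTN, CALCOCO2, SQSTM1, BNIP3L, CCPG1 and TAX1BP1, with NBR1 on the other side of 0. BNIP3 and OPTN, 2 of the 8, reached a log2 fold change of 1. Higher genes of that size numbered 469, which is 6.11% of all 7681 listed genes. At q below 0.01, met by 84.9% of all listed genes, 7 of the 8 receptors stayed and TAX1BP1 left. Of the 7681 listed genes, the 384 with the smallest q-values held 3 of the 8 receptors, SQSTM1, BNIP3 and CALCOCO2.

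**Figure D2:**
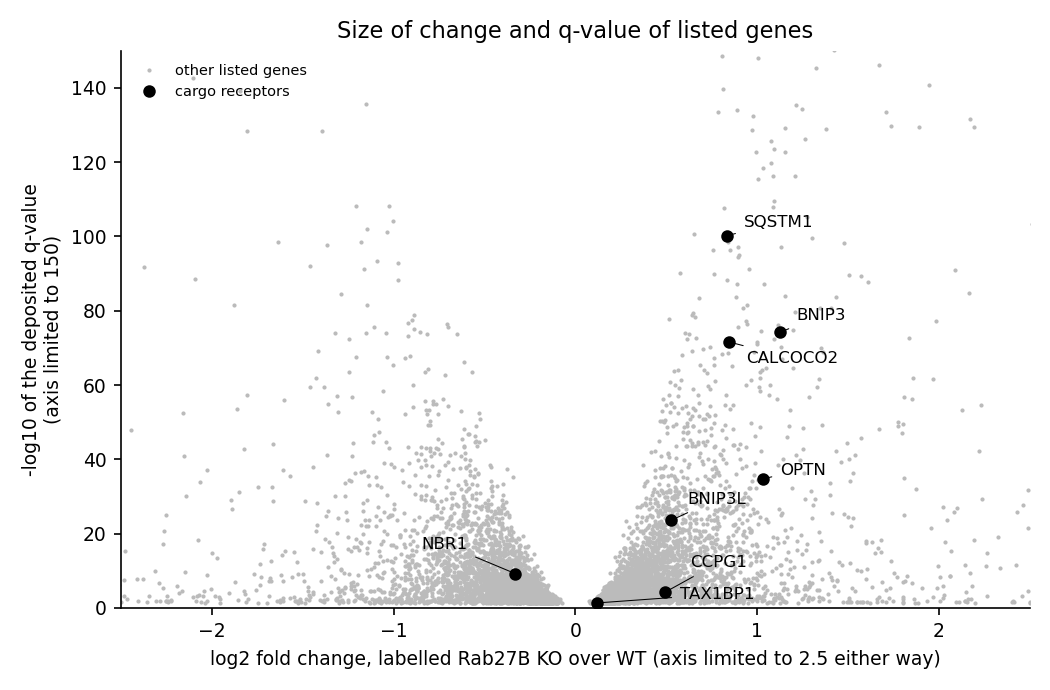
Minus log10 of the deposited q-value (vertical axis, limited to 150) against log2 fold change, samples labelled Rab27B KO over WT (horizontal axis, limited to 2.5 either way), for 7406 listed genes, the 8 listed receptors in black and the others in grey; 275 genes lie outside the limits or have a q-value listed as 0. SQSTM1, BNIP3 and CALCOCO2 stand far up on the higher side, and TAX1BP1 sits at the base of the plot with q = 0.0489.

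Some receptor genes share sequence with other genes, and the labels and files do not state how the authors assigned such reads. Of the 50-base stretches in the longest SQSTM1 coding transcript of GENCODE release 29, 50.7% also occur, on the opposite strand, in transcripts of the overlapping gene MRNIP. MRNIP had a log2 fold change of -0.31 per the authors' deposited table, the opposite direction to SQSTM1. For CCPG1, 48.9% of the stretches occur on the same strand in the read-through transcript DNAAF4-CCPG1, which was in neither table, and 4.67% on the opposite strand in PIGB. BNIP3 shared 11.0% with the pseudogene BNIP3P1, and NCOA4, which was not listed, 5.51% in all with the pseudogenes NCOA4P3 (3.71%) and NCOA4P4 (1.91%). TAX1BP1 shared 2.59%, on the opposite strand, with its neighbour JAZF1, which was higher by a log2 fold change of 1.00 per the authors' deposited table. NBR1 shared 1.78%, OPTN 0.346%, BNIP3L 0.197% and CALCOCO2 0.0275%. The values of SQSTM1 and CCPG1 are thus uncertain if reads were counted without strand or split between genes, and that was not tested.

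Direction in these tables also went with chromosome and transcript length, so the receptors are set beside both. On chromosome 15, where CCPG1 lies, 19.8% of 257 listed genes were higher, and on chromosome 7, where TAX1BP1 lies, 33.0% of 400. CCPG1 and TAX1BP1 were higher against those shares. On chromosomes 5, 8, 10 and 17, which hold the other listed receptors, the shares were 56.0%, 53.8%, 52.4% and 55.3%. NBR1 and CALCOCO2, both on chromosome 17, went in opposite directions.

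**Figure D3:**
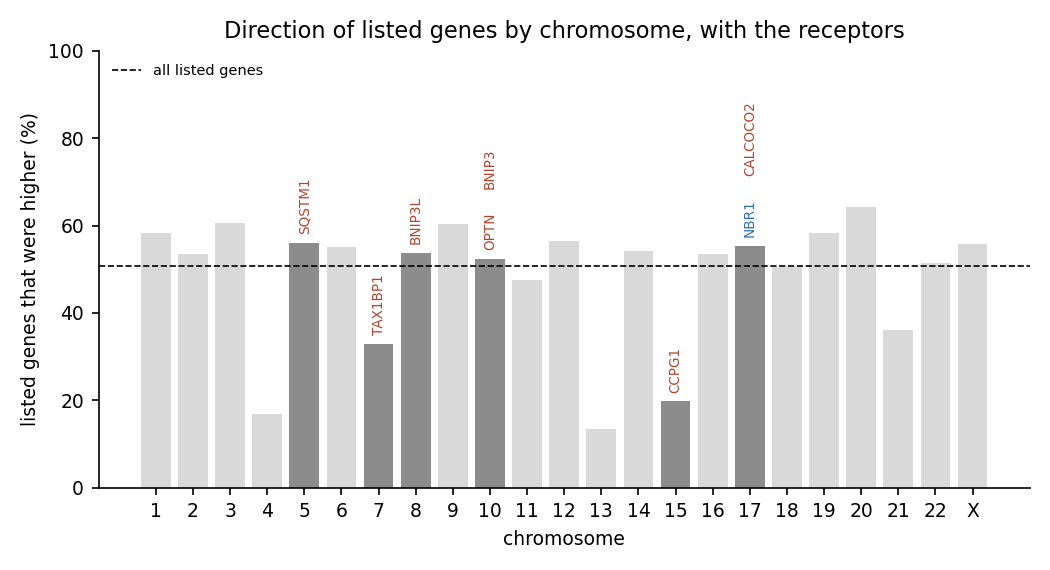
Percentage of listed genes that were higher in samples labelled Rab27B KO (vertical axis) on each chromosome with at least 20 listed genes (horizontal axis); the dashed line is the share over all listed genes, 50.7%. Dark bars are chromosomes with a listed receptor, whose names are red where higher and blue where lower; the bars under CCPG1 (19.8%) and TAX1BP1 (33.0%) lie below the dashed line.

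Longer transcripts were less often on the higher side. When listed genes were put in 4 equal bins by their longest coding transcript, then from the shortest bin to the longest 72.4%, 54.9%, 43.9% and 32.1% were higher. The longest NBR1 transcript has 4656 bases and falls in the third of these bins, as do those of TAX1BP1 with 4020, CALCOCO2 with 3682, BNIP3L with 3610 and OPTN with 3521 bases. SQSTM1 with 2986 and BNIP3 with 3066 bases fall in the second. CCPG1, with 6822 bases, falls in the longest bin and was higher. The part of chromosome or length in the receptor values was not tested. Genes of the lists described below were not set beside chromosome or length.

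The LC3 and GABARAP proteins that receptors bind were listed only on the higher side. Of 7 genes 4 were listed, all higher, with a median log2 fold change of 0.39. For this list and those below, the shares over all genes are 37.9% of protein-coding genes listed and 50.7% of listed genes higher. The lists were chosen with earlier results of these data known, and whether any differs from these shares was not tested. MAP1LC3B (LC3B) was 1.65-fold and GABARAPL2 1.36-fold higher per the authors' deposited table. GABARAPL1 and GABARAP were 1.25-fold and 1.09-fold higher per the authors' deposited table. MAP1LC3A, MAP1LC3B2 and MAP1LC3C were in neither table.

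Kinases and initiation factors that act on receptors were split. Of 13 genes 7 were listed, 4 higher and 3 lower. RB1CC1 (FIP200), which receptors such as p62 and CCPG1 bind to start an autophagosome, was 1.40-fold lower (q = 3.01e-12) per the authors' deposited table. ULK1, the initiation kinase, and TBKBP1, an adaptor of TBK1, were 1.27-fold and 1.25-fold lower, and ATG101, a partner of ULK1, 1.36-fold higher per the authors' deposited table. TBK1 itself, which phosphorylates OPTN and SQSTM1, was in neither table.

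Further receptors and adaptors were listed on both sides. Of 11 receptors and adaptors for aggregates, glycogen, ribosomes, Golgi and damaged lysosomes, 6 were listed, 2 higher and 4 lower, with a median log2 fold change of -0.16. WDFY3 (ALFY), a scaffold that works with p62 on aggregates, was 1.55-fold lower, NUFIP1, a ribosome receptor, 1.27-fold lower and the galectin gene LGALS8, whose protein recruits NDP52 to damaged vesicles, 1.16-fold lower per the authors' deposited table. TOLLIP, a ubiquitin-binding adaptor, was 1.12-fold higher per the authors' deposited table. CALCOCO1, the third relative of CALCOCO2 and TAX1BP1, was in neither table. These counts are small, and the difference from the 10 receptors was not tested. The part of chromosome or transcript length in these values was not tested either.

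Around the receptors of the endoplasmic reticulum, 8 of 14 further genes of its turnover were listed, 5 higher and 3 lower. The receptor genes ATL3 and RETREG1 (FAM134B) were 1.70-fold and 1.44-fold higher per the authors' deposited table. ATL2, an atlastin, and VAPA, a contact-site protein, were 1.38-fold and 1.19-fold higher per the authors' deposited table. The UFM1-conjugation genes UFM1, UFL1 and DDRGK1 were in neither table.

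Around the mitochondrial receptors, 10 of 18 further mitophagy genes were listed, 7 higher and 3 lower. PINK1, the kinase that marks damaged mitochondria, was 1.49-fold higher and VDAC1, an outer-membrane channel, 1.42-fold higher per the authors' deposited table. PPTC7, a phosphatase that lowers the BNIP3 and NIX proteins, was 1.32-fold and FKBP8, a mitophagy receptor, 1.13-fold higher per the authors' deposited table. The receptor genes FUNDC1, BCL2L13 and PHB2 were in neither table.

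The cargo of NCOA4 was listed although NCOA4 was not. Of 11 ferritin and iron genes 8 were listed, 5 higher and 3 lower. The ferritin genes FTH1 and FTL were 1.76-fold and 1.43-fold higher per the authors' deposited table, and both have many processed pseudogenes with which reads can be shared. HERC2, the ligase that directs NCOA4 to the proteasome, was 1.44-fold lower and TFRC, the transferrin receptor, 1.29-fold higher per the authors' deposited table.

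Listed genes of the NRF2 and hypoxia pathways were mostly higher, and their part in the SQSTM1 and BNIP3 values was not tested. Of 14 KEAP1 and NRF2 pathway genes 10 were listed, 9 higher and 1 lower, with a median log2 fold change of 0.39. Beside these counts, 37.9% of all protein-coding genes were listed, and 50.7% of all listed genes were higher. GCLM and HMOX1 were 2.20-fold and 2.02-fold, SRXN1 1.68-fold and TXNRD1 1.47-fold higher per the authors' deposited table. KEAP1 was the lower gene, 1.26-fold lower per the authors' deposited table (log2 fold change -0.33). NFE2L2, which encodes NRF2, was in neither table. KEAP1 was picked after seeing its value.

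Of 18 hypoxia genes other than the receptors, 12 were listed, 11 higher and 1 lower, with a median log2 fold change of 0.83. Again, the shares over all genes were 37.9% of protein-coding genes listed and 50.7% of listed genes higher. NDRG1 was 3.68-fold, P4HA1 2.68-fold, PGK1 1.78-fold and LDHA 1.75-fold higher per the authors' deposited table. BNIP3, 2.18-fold higher per the authors' deposited table, had a smaller change than NDRG1 and P4HA1 and a larger one than PGK1 and LDHA. BNIP3L, 1.44-fold higher per the authors' deposited table, had a smaller change than each of them. CA9 was the lower gene, 9.59-fold lower per the authors' deposited table (log2 fold change -3.26), and was picked after seeing its value.

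Of 10 transcription factors of autophagy and stress genes 6 were listed, 5 higher and 1 lower, where 37.9% of all protein-coding genes were listed. Among all listed genes, 50.7% were higher. DDIT3 (CHOP) was 3.49-fold, TFEB 1.40-fold, ATF4 1.24-fold and XBP1 1.21-fold higher per the authors' deposited table. FOXO1, FOXO3, FOXO4 and TFE3 were in neither table.

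**Figure D4:**
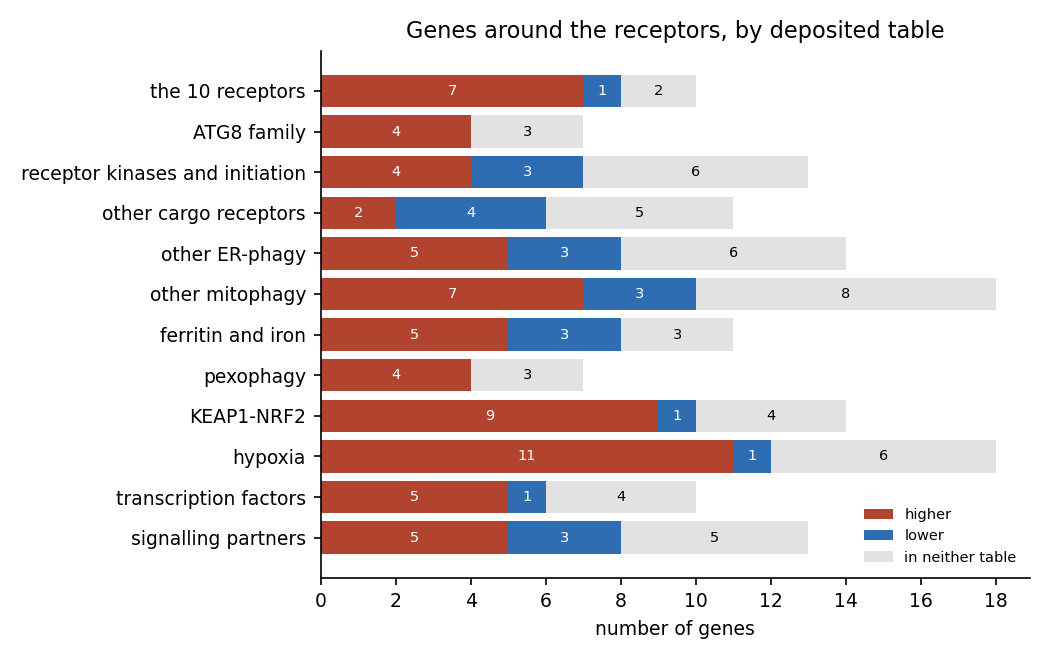
Number of genes (horizontal axis) in the authors' table of higher genes (red), in that of lower genes (blue) and in neither (grey), for the 10 receptors and 11 lists of genes around them. The receptors count 7, 1 and 2, the hypoxia list 11, 1 and 6, and the list of other cargo receptors 2, 4 and 5.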

How the data were processed

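RNA was sequenced from 6 HCT116 cultures, 3 per label, by a service on the DNBSEQ platform, per the labels' protocols. The submitters' processing notes name HISAT, Bowtie2 and GRCh38, without roles. Per the file headers, the authors deposited log2 fold changes (Rab27B KO over WT), the linear ratio (higher genes only) and a q-value. Counting, scaling and test were not given in the sources used here. Every listed q-value was below 0.05, so genes past that threshold alone are held, and 17 q-values are listed as 0. How many genes were tested is unknown. No value per sample was used, so no test was added. The submitters call the samples of a genotype biological replicates, and nothing more is stated of their origin. Whether the q-values reflect the spread between samples or counting error alone is unknown.

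Symbols were stripped of quotes. All 8 listed receptors matched RefSeq gene IDs (GRCh38.p14), as did 7656 of 7681 IDs, with 25 unmatched. Fold sizes are 2 to the power of the absolute log2 value. Motif and shared-stretch searches used RefSeq promoters and GENCODE release 29 transcripts, with stretches of 50 and 100 bases, and were tested on simulated sequences. The receptors and the 14 lists (11 of pathway genes, 3 of markers) were chosen with earlier results of these data known. Named were all 10 receptors, RAB27B, and up to 4 listed genes per list with the smallest q-values; names outside that rule are genes in neither table, genes that overlap a receptor, and those said to be picked after seeing the value. Alternatives were q below 0.01, a log2 change of at least 0.5 or 1, matching by gene ID, and leaving out chromosomes 4, 7, 13 and 15. Python 3.11.15, pandas 2.3.3 and matplotlib 3.10.9 were used.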

Additional observations from a re-analysis of the deposited data

How the results depend on the processing

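The count of 8 listed receptors, 7 higher and 1 lower, came out the same when receptors were matched by gene ID. At a log2 change of at least 0.5, 5 receptors were left, 5 higher and 0 lower. The median absolute log2 change of all listed genes was 0.41, and their share past 0.5 was not computed. At a log2 change of at least 1, 2 receptors were left, 2 higher and 0 lower, with a median log2 fold change of 1.08. Higher genes of that size were 6.11% of all listed genes. Both receptor counts fell because fewer genes pass a size limit. TAX1BP1, with a log2 fold change of 0.12, was no longer past the threshold at q below 0.01. The other 7 receptors stayed. Without chromosomes 4, 7, 13 and 15, TAX1BP1 and CCPG1 left and 6 receptors remained, 5 higher and 1 lower. The share of all listed genes that were higher was not recomputed without these chromosomes. At stretches of 100 bases in place of 50, the shared part of BNIP3 fell from 11.0% to 4.18%, whereas SQSTM1 (48.1%) and CCPG1 (47.7%) changed little. No paired analysis was possible because the tables hold no value per sample, and leaving out replicates was not run for the same reason. The depth is unknown, so whether NCOA4 and TEX264 were too weakly covered to be listed cannot be told apart from no change.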

Other observations

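Peroxisomes are also cleared by NBR1 and p62. Of 7 peroxins and peroxisomal membrane genes, 4 were listed, all higher. Here and in the next list, the shares over all genes are 37.9% of protein-coding genes listed and 50.7% of listed genes higher. PEX16 and PEX3, which insert peroxisomal membrane proteins, were 1.41-fold and 1.39-fold higher per the authors' deposited table. ABCD3, a fatty acid transporter, and PEX2, a peroxisomal ubiquitin ligase, were 1.21-fold and 1.18-fold higher per the authors' deposited table.

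Of 13 signalling partners of p62, optineurin and TAX1BP1, 8 were listed, 5 higher and 3 lower. TNFAIP3 (A20) and RNF11, which act with TAX1BP1 in a complex that restrains NF-kB, were 2.87-fold (q = 7.75e-23) and 1.51-fold higher per the authors' deposited table, while TAX1BP1 itself was 1.08-fold higher. RAB8A and HTT (huntingtin), which bind optineurin, were 1.21-fold higher and 1.53-fold lower per the authors' deposited table.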
